A study of Rattus norvegicus with 4 samples.

Results

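This account covers 32 rat genes of cholesterol synthesis, uptake, efflux and storage. They were chosen by their function in the pathway, though with earlier results of these data known. A probe was matched by its accession to 30 of them, and all 30 were measured, out of 9291 genes measured on the arrays. No probe was matched to Npc1, which moves cholesterol out of lysosomes, or to Cyp46a1, the neuronal cholesterol 24-hydroxylase. Hypothalamic gene expression was compared between male Sprague Dawley rats that had received triiodothyronine (T3, the active thyroid hormone) and rats that had received saline. All 8 rats, the saline rats included, had been made hypothyroid with methimazole (MMI, an inhibitor of thyroid hormone synthesis) at 0.025% in their drinking water over 22 days. On day 21, T3 (25 µg per 100 g) was given to 4 rats and saline to 4, and the rats were killed after 24 hours, at an age of 10 weeks (7 weeks at the start). Total RNA from tissue blocks spanning Bregma -2.12 to -4.52 mm was hybridised to 4 two-colour arrays. Each array was taken to hold the RNA of 1 T3 rat and 1 saline rat, since the labels do not name the rats. Arrays 1 and 3 carried T3 in Cy5 and saline in Cy3, and arrays 2 and 4 had the dyes swapped. The saline rats stayed hypothyroid, so a ratio compares hormone replacement with hypothyroidism, and no rat with a normal thyroid state was measured.

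Cells make cholesterol from acetyl-CoA through the mevalonate arm, which ends in farnesyl diphosphate, and then through squalene and lanosterol in the sterol arm. The transcription factor SREBP-2 drives these genes when membrane sterol is low: SCAP escorts it out of the endoplasmic reticulum and the INSIG proteins hold it back. The liver X receptors (LXR), activated by oxysterols, raise the transporters that export cholesterol. Brain cholesterol is made within the brain, largely by oligodendrocytes, the myelin-forming cells, and by astrocytes, and it leaves chiefly as 24-hydroxycholesterol.

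At 24 hours after T3, no transcript of the cholesterol list passed the test against saline. For 27 of the 30 measured genes the SD over arrays was larger than the mean log2 ratio in size, as it was for 80.3% of all genes; the exceptions were Nr1h2, Insig2 and Srebf2. Of the 30 measured genes, 19 had a mean log2 ratio (T3 over saline) above 0 and 11 below it, where 48.1% of all genes were below 0. The means lay between -0.12 for Abcg1 and 0.14 for Sqle. Their median was 0.017, against 0.0042 for all measured genes. By limma, 0 of 30 passed an adjusted p of 0.05 over all probes, where 0.0994% of all probes and 0.161% of all genes did, and 0 of 30 had an unadjusted p under 0.05, where 9.28% of genes did. Adjusted p for the list lay between 0.781 and 0.999 (limma). The treatment itself was visible on every array: Hr, a nuclear corepressor induced directly by thyroid hormone, had log2 ratios of 1.19, 1.00, 1.16 and 1.37 on arrays 1 to 4. Klf9, a hormone-induced transcription factor, lay between 0.59 and 1.19, and Dio3, the deiodinase that inactivates T3, between 1.40 and 3.56. Dio3 read 3.43 and 3.56 with T3 in Cy5 and 1.59 and 1.40 with T3 in Cy3. Of these check genes only Hr passed an adjusted p of 0.05 (limma adjusted p = 0.013). Klf9 and Dio3 did not (limma adjusted p = 0.052 and 0.084). Over all probes 22 passed as higher (0.0951%) and 1 as lower (0.00432%). Without array 1, 3 or 4 that count of 23 was 0, while without array 2 it was 70, and the count for the cholesterol list was 0 in each case.

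The interval of each difference shows what size of change the arrays leave possible. The 95% interval of the mean log2 ratio held 0 for all 30 genes, as it did for 90.7% of all measured genes. It lay inside -0.5 to 0.5 for 29 of the 30, against 92.4% of measured genes. Sc5d was the exception, with an interval of -0.53 to 0.67. The tightest were those of Nr1h2 (-0.26 to 0.050), Scap (-0.12 to 0.20) and Mvd (-0.17 to 0.16).

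**Figure D1:**
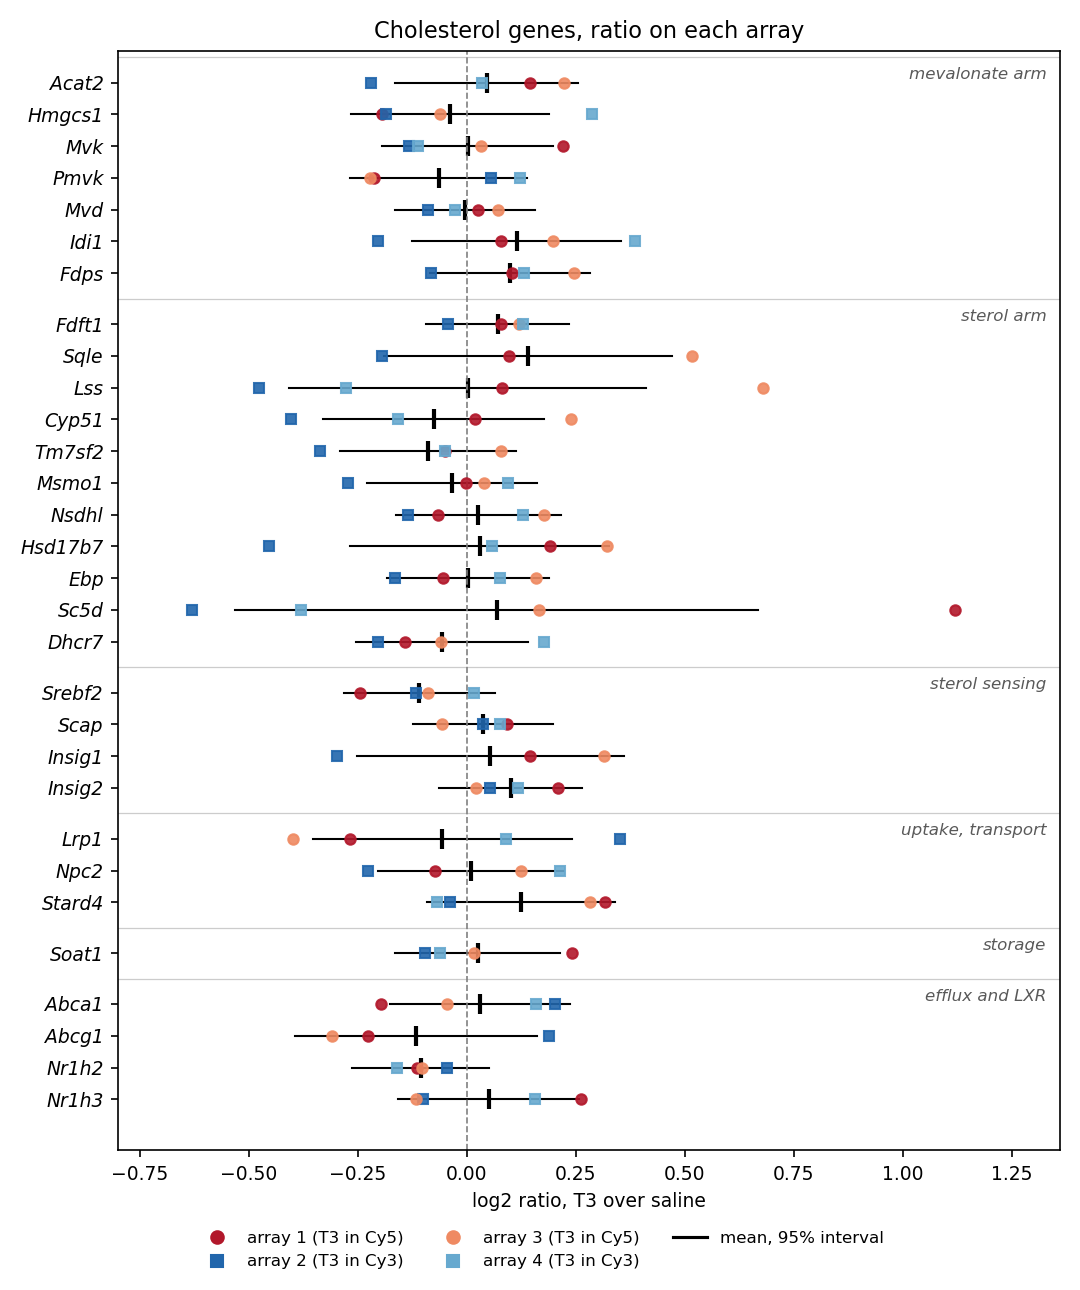
Log2 ratio of T3 over saline (horizontal axis) for each measured cholesterol gene (rows, in 6 groups by role) on each of the 4 arrays; circles are arrays with T3 in Cy5, squares those with T3 in Cy3, and the black tick and line are the mean and its 95% interval from limma's moderated spread. Every interval crosses 0, and the points of array 2 lie to the left of 0 for 17 of the 18 synthesis genes.

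The promoters of the synthesis genes are shown because these genes share regulation through their upstream sequence. RefSeq windows (build GRCr8) from 250 bases before to 50 after the annotated start were found for 27 of the 32 genes. The 150 bases before the start are given for Hmgcs1 (an early enzyme of the mevalonate arm), Srebf2 (which encodes SREBP-2) and Nr1h2 (LXR-beta). They are also given for Lss and Sc5d, the 2 genes with the widest spread between arrays. Capitals mark CCAAT on either strand, the box bound by NF-Y, a known partner of SREBP at sterol-regulated promoters.
Hmgcs1, chr2:53382154-53382303, plus strand: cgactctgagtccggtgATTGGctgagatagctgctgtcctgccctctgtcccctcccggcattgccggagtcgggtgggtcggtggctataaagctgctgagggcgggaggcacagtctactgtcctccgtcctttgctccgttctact
Lss, chr20:12118231-12118380, minus strand: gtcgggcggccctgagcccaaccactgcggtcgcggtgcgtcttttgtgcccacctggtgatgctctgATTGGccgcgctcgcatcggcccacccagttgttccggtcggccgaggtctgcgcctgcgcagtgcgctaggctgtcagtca
Sc5d, chr8:51538278-51538427, minus strand: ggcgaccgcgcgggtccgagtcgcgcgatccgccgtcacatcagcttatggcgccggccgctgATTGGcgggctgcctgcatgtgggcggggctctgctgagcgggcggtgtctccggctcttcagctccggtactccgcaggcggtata
Srebf2, chr7:115543157-115543306, plus strand: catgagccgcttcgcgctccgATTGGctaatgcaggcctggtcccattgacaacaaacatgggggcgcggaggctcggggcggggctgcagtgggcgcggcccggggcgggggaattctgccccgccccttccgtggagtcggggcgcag
Nr1h2, chr1:104183864-104184013, minus strand: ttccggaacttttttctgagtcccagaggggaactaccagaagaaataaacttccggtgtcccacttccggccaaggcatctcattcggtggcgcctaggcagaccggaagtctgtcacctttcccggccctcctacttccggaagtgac

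In the whole windows, CCAAT (searched on both strands) was present in 19 of the 27 genes (70.4%) and in 12 of 15 synthesis genes with a window, against 37.5% of all 33469 windows. Nr1h2 had none. The sterol element TCACNCCAC and the E-box form TCACGTGA, searched on both strands, were each found in 0 of the 27, against 1.12% and 0.777% of all windows. AGGTCA repeated in the same direction with a spacer of 4 bases, the element read by thyroid hormone receptor and by LXR, was likewise found in 0 of 27 and in 0.00598% of all windows. These counts say only which letters stand in these windows.

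The mevalonate arm, all 7 genes of which were measured, had 4 means above 0 and 3 below. Its median by array was 0.077, -0.13, 0.071 and 0.12 on arrays 1 to 4, so that array 2 alone was negative. Acat2, the cytosolic thiolase that joins the first acetyl-CoA units, had log2 ratios of 0.14, -0.22, 0.22 and 0.034 (mean 0.046 ± 0.19, SD, n = 4 arrays). Hmgcs1, which condenses acetoacetyl-CoA to HMG-CoA, stood at -0.19, -0.19, -0.062 and 0.29, a mean of -0.038 ± 0.23. At this Hmgcs1 probe array 4 was thus the high one, and the other arrays were all below 0. A dimmer probe did not share that order, at 0.12, -0.64, 0.054 and 0.070. Mvk, mevalonate kinase, gave 0.22, -0.13, 0.033 and -0.11, with the Cy5 arrays above 0 and the Cy3 arrays below (mean 0.0014 ± 0.16). Pmvk, the next kinase, did the reverse, at -0.21 and -0.22 on arrays 1 and 3 and 0.055 and 0.12 on arrays 2 and 4 (mean -0.065 ± 0.18). Mvd, mevalonate diphosphate decarboxylase, was the steadiest of the arm, within -0.088 to 0.071 (mean -0.0043 ± 0.069).

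The last 2 enzymes of the arm had the highest means in it. Idi1, the isopentenyl diphosphate isomerase, had ratios of 0.077, -0.20, 0.20 and 0.39, a mean of 0.11 ± 0.25. Fdps, farnesyl diphosphate synthase, had 0.10, -0.084, 0.25 and 0.13 (mean 0.099 ± 0.14). At these brightest probes both were higher on 3 of 4 arrays and lower on array 2, with limma adjusted p of 0.875 and 0.850. The dimmer Fdps probe was above 0 on array 2.

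The sterol arm was measured in full, with 7 of 11 means above 0 and 4 below. Its genes swung together between arrays: on array 2 all 11 were below 0, with a median of -0.27, and on array 3 10 of 11 were above 0, with a median of 0.17. On arrays 1 and 4 the medians were 0.019 and 0.066. Over all measured genes 51.3% were lower on array 2 and 54.0% higher on array 3.

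Fdft1, squalene synthase, the first step committed to sterols, gave 0.077, -0.045, 0.12 and 0.13 (mean 0.071 ± 0.080). Sqle, squalene epoxidase, a rate-limiting enzyme, had the highest mean of the list from 3 arrays, at 0.097, -0.20 and 0.52 on arrays 1 to 3 (mean 0.14 ± 0.36, limma adjusted p = 0.901). Its spot on array 4 was marked as an outlier by the scanner software and left out. Lss, which closes lanosterol's rings, gave 0.081, -0.48, 0.68 and -0.28 (mean 0.0015 ± 0.51). Its mean near 0 thus combined changes of opposite sign, upward with T3 in Cy5 and downward with T3 in Cy3. Cyp51, the lanosterol demethylase, had the same order at smaller size: 0.019, -0.40, 0.24 and -0.16 (mean -0.076 ± 0.27).

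The later steps are those that trim and rearrange the ring. Tm7sf2, a sterol C14 reductase, had the lowest mean of the arm, -0.089 ± 0.18, with array 2 at -0.34 and the others between -0.050 and 0.079. Msmo1, the C4 methyl oxidase, gave -0.0023, -0.27, 0.040 and 0.094 (mean -0.035 ± 0.16). Nsdhl, which acts after it, gave -0.066, -0.13, 0.18 and 0.13 (mean 0.026 ± 0.15). In these 3 genes array 2 was the lowest value.

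Hsd17b7, the sterol 3-ketoreductase, ran from -0.45 on array 2 to 0.32 on array 3, with 0.19 and 0.057 on arrays 1 and 4 (mean 0.029 ± 0.34). Its probe was well above background on 3 of 4 arrays in the T3 channel and on 2 of 4 in the saline channel. Ebp, the sterol isomerase, lay between -0.16 and 0.16 (mean 0.0034 ± 0.14). Dhcr7, which makes cholesterol from 7-dehydrocholesterol, was below 0 on arrays 1 to 3, at -0.14, -0.20 and -0.061, and at 0.18 on array 4 (mean -0.057 ± 0.17).

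Sc5d, the desaturase that supplies the substrate of Dhcr7, had the widest spread of the list. Its ratios were 1.12 and 0.17 with T3 in Cy5 and -0.63 and -0.38 with T3 in Cy3 (mean 0.068 ± 0.78, limma adjusted p = 0.986). In normalised log2 brightness, its T3 channel read 12.19, 11.62, 12.18 and 11.51 on arrays 1 to 4, and its saline channel 11.07, 12.25, 12.02 and 11.89. The saline channel of array 1 was therefore the low value behind the ratio of 1.12.

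**Figure D2:**
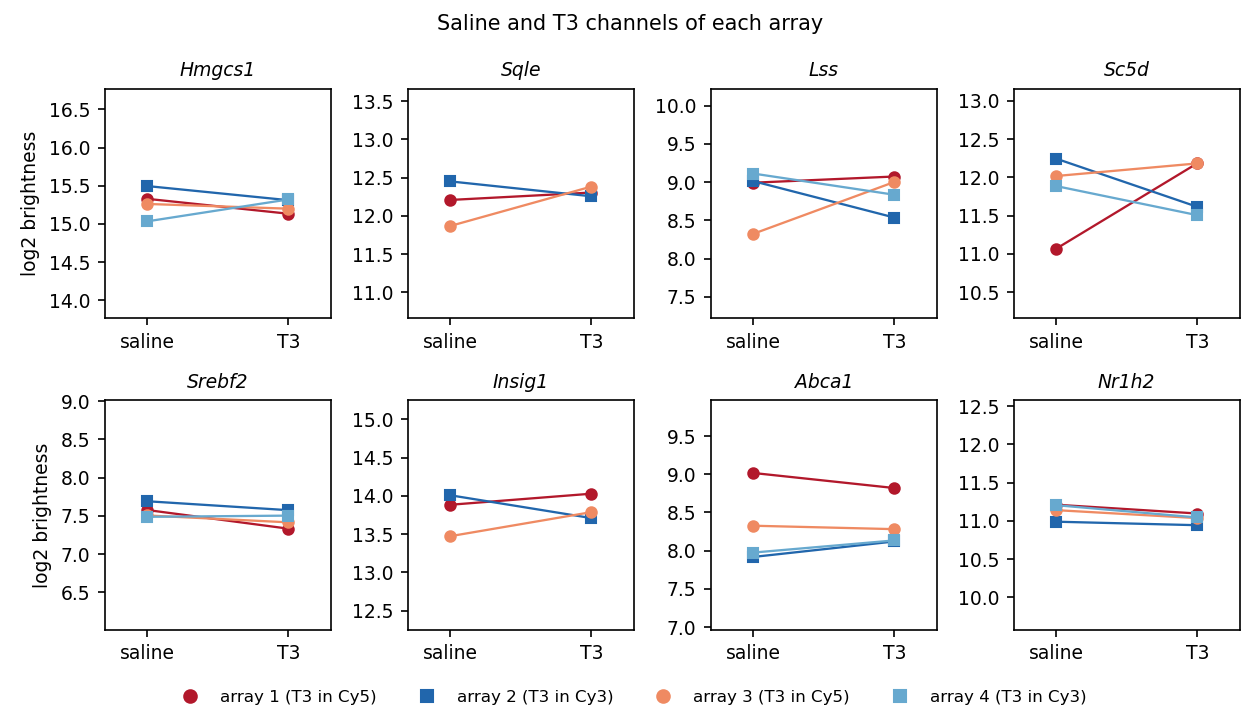
Normalised log2 brightness (vertical axis, 3 log2 units in every panel) of the saline and the T3 channel of each array for 8 cholesterol genes; each line joins the channels of 1 array. Lines of Lss and Sc5d rise on arrays 1 and 3 and fall on arrays 2 and 4, while those of Nr1h2 all slope slightly down.

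Among the sterol-sensing genes, Srebf2 was at -0.24, -0.12, -0.090 and 0.016, lower on 3 of 4 arrays (mean -0.11 ± 0.11, limma adjusted p = 0.806). A dimmer Srebf2 probe gave a mean of 0.023. Scap stayed within -0.056 to 0.091 (mean 0.037 ± 0.066). Insig2, which with Insig1 retains the SCAP complex, was above 0 on every array, at 0.21, 0.053, 0.022 and 0.12. Its mean of 0.10 ± 0.083, a 1.07-fold difference, did not pass (limma adjusted p = 0.818), and 9.74% of genes with values on 4 arrays were higher on all of them. Insig1, itself a target of SREBP-2, gave 0.15, -0.30 and 0.32 on arrays 1 to 3 at its brightest probe, with array 4 marked as an outlier (mean 0.054 ± 0.32). The other 3 Insig1 probes, measured on 4 arrays, had means of -0.055, -0.067 and -0.094. On array 2 all 4 Insig1 probes read low, from -0.30 to -0.22.

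For uptake and transport, Lrp1, the large lipoprotein receptor that takes up apolipoprotein E particles, had ratios of -0.27, 0.35, -0.40 and 0.091 (mean -0.056 ± 0.34). It moved against the sterol arm, being high where that arm was low, on array 2. A dimmer Lrp1 probe had the same signs by array (-0.18, 0.034, -0.11 and 0.14), but was near 0 on array 2. That probe was well above background on 2 of 4 arrays in the T3 channel and on 3 of 4 in the saline channel. Npc2, which carries cholesterol inside lysosomes, gave -0.073, -0.23, 0.12 and 0.21 (mean 0.0091 ± 0.20). Stard4, a cytosolic sterol carrier controlled by SREBP-2, was at 0.32 and 0.28 with T3 in Cy5 and at -0.038 and -0.068 with T3 in Cy3 (mean 0.12 ± 0.20, limma adjusted p = 0.838). For storage, Soat1, which esterifies cholesterol, gave 0.24, -0.097, 0.015 and -0.062 (mean 0.024 ± 0.15).

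For efflux, Abca1, which exports cholesterol to lipid-poor apolipoproteins, had ratios of -0.20, 0.20, -0.045 and 0.16 (mean 0.030 ± 0.19). Abcg1, which exports it to formed particles, had -0.23, 0.19 and -0.31 on arrays 1 to 3, with array 4 marked as an outlier (mean -0.12 ± 0.27, limma adjusted p = 0.901). Both transporters were thus below 0 with T3 in Cy5 and above 0 with T3 in Cy3, which for Abcg1 was array 2 alone. With outlier spots kept, the mean of Abcg1 was -0.13. Nr1h2 was below 0 on every array, at -0.12, -0.046, -0.10 and -0.16, the narrowest spread of the list (mean -0.11 ± 0.047, a ratio of 0.929). It had the smallest p of the list and did not pass (limma adjusted p = 0.781), and 8.04% of genes with values on 4 arrays were lower on all of them. Nr1h3, LXR-alpha, gave 0.26, -0.10, -0.12 and 0.16, so its arrays did not share a sign (mean 0.050 ± 0.19). In all, 2 of the 27 cholesterol genes with values on 4 arrays, Insig2 and Nr1h2, had 1 sign throughout, against 17.8% of all genes with 4 values.

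Synthesis was then set against efflux, here Abca1, Abcg1 and the LXR genes, since export and synthesis are regulated in opposite directions by cell sterol. The median over the 18 synthesis genes was 0.052, -0.20, 0.16 and 0.075 on arrays 1 to 4, and over the 4 efflux genes it was -0.16, 0.071, -0.11 and 0.16. Synthesis minus efflux was therefore 0.21, -0.27, 0.27 and -0.081, with a mean of 0.032 and an SD of 0.25. With outlier spots left out, the sign of this difference followed the dye of the T3 sample on all 4 arrays. The synthesis genes were then brighter in Cy5 relative to the efflux genes, whichever sample was in Cy5. On array 4 the spots of Sqle and Abcg1 were missing from these medians. With outlier spots kept, the mean difference was 0.069, and its sign on array 4 did not follow the dye. The LXR genes encode receptors and not transporters. For the transporters Abca1 and Abcg1 alone, with outlier spots left out, the medians were -0.21, 0.20, -0.18 and 0.16 on arrays 1 to 4. Array 4 was then Abca1 alone, and the mean of synthesis minus efflux was 0.031. No test was run on these medians, because genes of a list are not replicates. The median of all measured genes stayed within -0.0064 to 0.019 on every array.

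**Figure D3:**
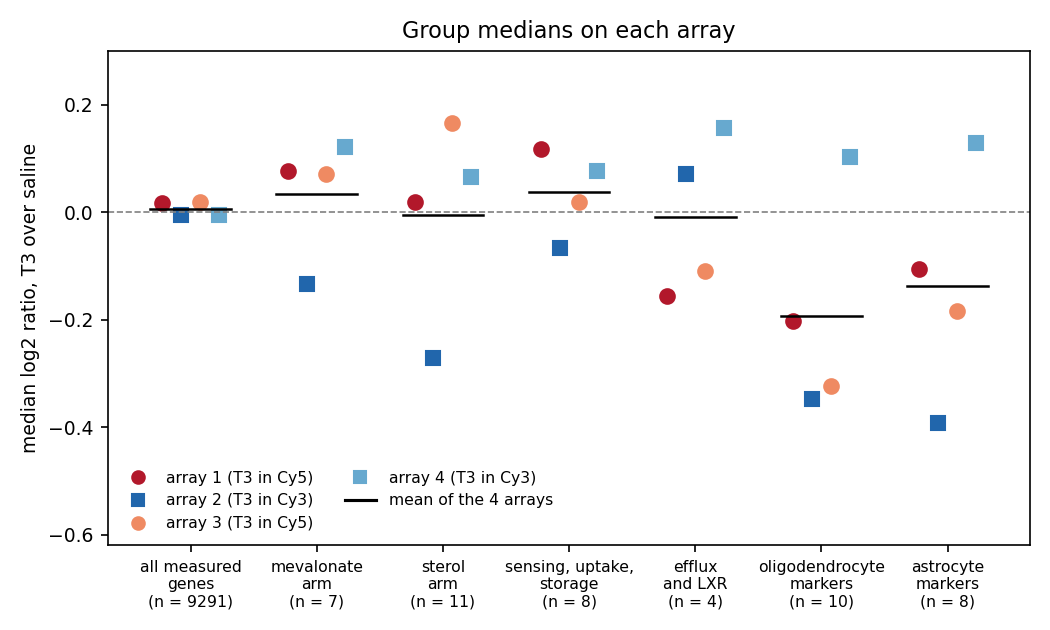
Median log2 ratio of T3 over saline (vertical axis) on each array for groups of cholesterol genes, for all measured genes and for oligodendrocyte and astrocyte markers; black bars are means of the 4 arrays. Synthesis groups are lowest on array 2, the efflux group is below 0 on arrays 1 and 3, and both marker lists are above 0 on array 4 alone.

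Among the cholesterol genes the sign of the ratio often differed between dye orientations. Averaged within an orientation, 21 of 30 genes had opposite signs with T3 in Cy5 and with T3 in Cy3, and so did 54.8% of all measured genes. Of the 27 with values on 4 arrays, 10 were brighter in the same dye on all 4, against 23.5% of genes. The 7 brighter in Cy5 (13.4% of genes) were Mvk, Mvd, Lss, Cyp51, Sc5d, Stard4 and Soat1, and the 3 brighter in Cy3 (10.1% of genes) were Pmvk, Lrp1 and Abca1. With a dye term in limma, 9 of 30 had an unadjusted p under 0.05 for the dye, against 15.6% of genes (5 higher in Cy5, against 9.05%), while 0 of all probes passed an adjusted p of 0.05 for it. Of these 9, Insig1 and Abcg1 rest on 3 arrays. The dye coefficient was 0.57 for Sc5d and 0.38 for Lss, with ratios of 0.64 and 0.38 on the Cy5 arrays against -0.51 and -0.38 on the Cy3 arrays. For T3 in that fit, 0 of 30 cholesterol genes passed, where 0.0648% of probes did, and 0 had an unadjusted p under 0.05, where 13.2% of genes did. The smallest limma adjusted p was 0.446, for Stard4. Dye orientation and the rats of each pair cannot be told apart here, since each orientation was taken to hold 2 pairs of rats of its own.

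Pearson r between arrays, taken over the cholesterol genes as a description since genes are not replicates, was 0.40 between the arrays with T3 in Cy5 and 0.45 between those with T3 in Cy3. Over all measured genes the same pairs gave 0.419 and 0.215. For the 4 pairs of opposite orientation it was -0.68 to -0.34, against -0.11 to 0.22 over all measured genes. The points of 1 array share its RNA samples, a dye orientation and a hybridisation.

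**Figure D4:**
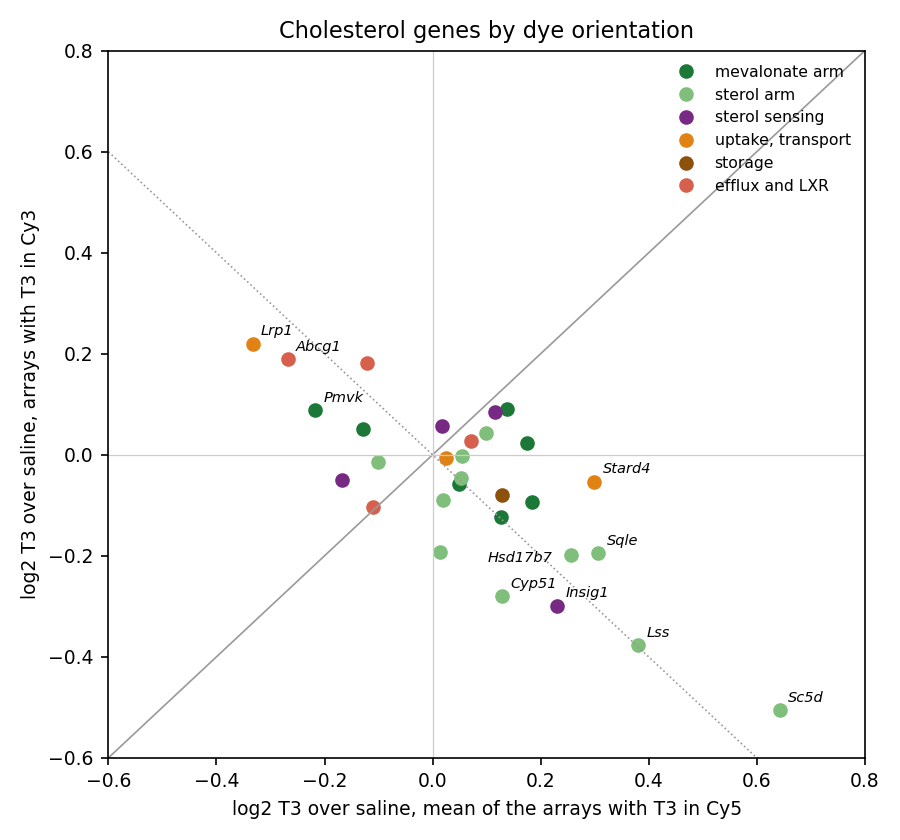
Each point is a measured cholesterol gene, with its mean log2 ratio of T3 over saline on the arrays with T3 in Cy5 (horizontal axis) and on those with T3 in Cy3 (vertical axis); the solid line marks equal values and the dotted line values of opposite sign. Of the 30 points, 21 lie in the quadrants of opposite sign, with Sc5d (0.64 and -0.51) the farthest out.

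Marker RNA of the cells that make brain cholesterol also differed between arrays. All 10 oligodendrocyte markers were measured, with medians of -0.20, -0.35, -0.32 and 0.10 on arrays 1 to 4, and all 8 astrocyte markers, with medians of -0.11, -0.39, -0.18 and 0.13. Of the oligodendrocyte markers 9 of 10 had a mean below 0, against 48.1% of genes, and 4 were lower at an unadjusted p under 0.05, against 3.92% of genes. The astrocyte markers went both ways, with 3 means above 0 and 5 below, and at an unadjusted p under 0.05 there were 2 higher (Fgfr3 and Slc1a2, both at 0.34) and 1 lower (Gja1, at -0.62). None of either list passed an adjusted p of 0.05 (limma). Array 2, where 17 of 18 synthesis genes were below 0, was thus the lowest for both marker lists, and array 3, where 15 of 18 were above 0, was also low in both. The mean log2 brightness of the oligodendrocyte markers ranged from 11.87 to 12.46 in T3 channels and from 12.01 to 12.68 in saline channels, and that of the astrocyte markers from 12.05 to 12.35 and from 11.96 to 12.60. In blocks of tissue, fewer cells of a type and less RNA per cell cannot be told apart, and the part of these markers in the cholesterol ratios was not tested. Markers of hypothalamic neurons (7 of 7), of neurons in general (7 of 8) and of microglia (5 of 5) were measured, with medians by array of -0.45 to -0.016, -0.085 to 0.10 and -0.27 to 0.13. Red blood cell markers (3 of 4) had a median of -3.25 on array 2 and 0.34 to 1.35 on the others, and choroid plexus markers (3 of 5, with Kl and Clic6 not well above background) 2.70 on array 3 and -0.37 to 0.10 on the others.

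Of 38 further genes of the pathway, 26 were measured and 0 passed an adjusted p of 0.05 (limma), with 2 higher and 4 lower at an unadjusted p under 0.05, where 5.36% and 3.92% of genes were. The lower ones with the smallest p were Ch25h, Rxrg and Abca2. Ch25h makes 25-hydroxycholesterol, an oxysterol that restrains SREBP-2. It was at -0.19, -0.55, -0.45 and -0.56 (mean -0.44 ± 0.18, limma adjusted p = 0.158), below 0 on every array. Its probe was dim on array 4, at a log2 brightness of 5.92 (T3) and 6.49 (saline), against 8.54 to 9.09 on arrays 1 to 3. In each channel it was well above background on 3 of 4 arrays. The LXR partner Rxrg was at -0.39 ± 0.21 and Abca2, a lipid transporter of myelinating cells, at -0.23 ± 0.095 over 3 arrays. On the higher side were Mylip, an LXR-induced ubiquitin ligase (0.33 ± 0.25), Scarb1, the HDL receptor (0.23 ± 0.16), and Cyp27a1, a sterol 27-hydroxylase (0.20 ± 0.25). Limma adjusted p for these 5 genes lay between 0.253 and 0.691.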

How the data were processed

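Per the file headers, Agilent's Feature Extraction (version 10.7.3.1) made the deposited scanner files, which hold median spot and background intensity and a processed intensity for each dye. The same deposited files held a log10 ratio of Cy5 over Cy3, which was not used. The authors' deposited value table, read here as log2 ratios, served as an alternative. The submitters' processing notes name limma 3.18.9, and log base, centring and direction of that table are unknown here.

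Here, background was corrected with normexp (offset 50) and arrays were normalized by loess in limma 3.58.1 under R 4.3.3, with control spots at weight 0 and outlier spots left out. Ratios with T3 in Cy3 were turned. Probes well above background on at least 3 arrays in the T3 or the saline channel were kept (23141 of 41012). They were named by accession through a RefSeq table of GRCr8 (16964 probes with 1 symbol, 24048 with none), and a gene's value is that of its brightest kept probe. Differences were tested with limma (2-sided, Benjamini-Hochberg over all kept probes; 3 residual and 4.35 prior degrees of freedom), and the fit was tested on simulated data. Intervals use the moderated spread. The labels give 8 rats and 4 per treatment, so each array was taken as its own pair. All arrays lay on 1 slide and were scanned together, so no such batch could be tested. Between 48.6% and 66.8% of probes were well above background in T3 channels and 50.7% to 62.4% in saline channels, and the number of arrays limits the precision.

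Every member was named, and of the further pathway genes the 3 with the smallest p in each direction. Some genes of that list are not reported here. The members and lists were chosen with earlier results of these data known. Sf1 on the list of hypothalamic markers was left out, since in the gene table this symbol names a splicing factor. Alternatives changed the background correction, normalization, filters, probe choice, dye term, eBayes settings, array weights, threshold and arrays used.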

Additional observations from a re-analysis of the deposited data

Results flagged for a closer look

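The median over the measured cholesterol genes was -0.134 on array 2, against 0.052 to 0.077 on the other 3 arrays. Its gap to the nearest array made up 0.881 of the whole range, above Dixon's critical value for 4 samples. This was the 1 value set apart among 35 genes and group medians tested, and chance sets apart about 1 in 20. None of the 27 single genes tested was set apart. Without array 2, 0 of 30 genes passed the threshold (limma) and 1, Abcg1, had an unadjusted p under 0.05.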

How the results depend on the processing

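In every alternative run, 0 cholesterol genes passed the threshold (limma). At an unadjusted p under 0.05 there was at most 1, Abca1 with the deposited value table and Abcg1 without replicate 2. The probes called, 23 of all probes, were 14 with a normexp offset of 16, 67 with no filter on dim probes, 15 with a dye term, 10 with the deposited value table and 90 at a threshold of 0.1. They were 0 with median centring, with Agilent's processed signals and with eBayes using trend and robust (131, 1597 and 1162 at an unadjusted p under 0.05). Leaving out a replicate gave 0 to 70 calls, with 0 without replicate 1, 3 or 4 (1401, 1381 and 1578 at an unadjusted p under 0.05) and 70 without replicate 2; the cause was not tested. Group medians and their difference moved by less than 1 SD over arrays in each alternative run. Synthesis minus efflux lay between -0.048 without replicate 3 and 0.13 without replicate 2, and at -0.0055 with median centring. The sign of a gene's mean changed in 8 of 30 genes with median centring and in 5 to 10 when a replicate was left out. With the deposited value table, read as T3 over saline, it changed in 10 genes, but the direction of that table is not settled. Of the genes with a spot left out on array 4, none changed sign when outlier spots were kept, an alternative chosen after seeing the data. The main test is already paired, because each array pairs a T3 with a saline sample and its ratio is the paired value. No separate paired alternative was therefore run.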

Other observations

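The deposited value table gave other values for the cholesterol genes than the scanner files. Across kept probes, its columns correlated with the ratios of their own arrays at 0.432, 0.426, 0.185 and 0.28, and its columns for arrays 3 and 4 correlated with each other at -0.509. Its direction and processing are therefore not settled here. In that table Abca1 was at 0.31, 0.12, 0.33 and 0.22 on arrays 1 to 4, a mean of 0.25. Srebf2 was at -0.31, -0.12, -0.0071 and -0.52, a mean of -0.24. Sc5d again had the widest range, from -0.60 on array 4 to 2.11 on array 3.

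Genes with several probes gave a further view of the spread. The 2 Hmgcs1 probes differed most on array 2, at -0.19 for the brighter and -0.64 for the dimmer. The 2 Fdps probes had means of 0.099 and 0.10 but differed by array. The dimmer one read -0.055, 0.077, 0.021 and 0.38 on arrays 1 to 4. The 2 Idi1 probes had means of 0.11 and -0.0056, and the dimmer one was at -0.15 on array 1.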
